A study of Mus musculus with 12 samples.

Results

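Complex I, NADH:ubiquinone oxidoreductase, is the entry point for electrons from NADH into the respiratory chain, and its transcripts were followed here through 35 nuclear genes for its subunits in mouse hearts. The genes are the rows whose Ensembl identifier carries the symbol of a listed Nduf subunit, with pseudogene rows left out, and they are 35 of the 55401 rows of the count table. All 35 passed the filter on low counts, which left 16213 genes in the tests. The hearts came from wild-type (WT) C57BL/6J mice of both sexes, and 3 libraries were made for each of 4 groups: exercised and sedentary females, and exercised and sedentary males. Exercise was treadmill running at a speed of 1 km/h, in sessions of 45 min on 5 days of every week, kept up for 6 weeks. Sedentary mice were age-matched and remained caged for those 6 weeks. No allele, transgene or drug separated the groups. The series asks which cardiac transcripts change with endurance running and whether the sexes differ in this.

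Complex I is an L-shaped machine of the inner mitochondrial membrane. The N arm reaches into the matrix, oxidises NADH and sends its electrons along iron-sulphur clusters to the Q arm, where ubiquinone is reduced, and the membrane arm pumps protons. Core subunits carry the redox centres and the proton channels, the channels being encoded by mitochondrial DNA, while accessory subunits from nuclear genes build and stabilise the complex. Heart muscle is rich in mitochondria and takes most of its energy from oxidation of fatty acids, which supplies this complex with NADH. By arm, the 35 genes fall into 10 of the N arm, 5 of the Q arm, 9 of the proximal and 10 of the distal membrane arm, with Ndufab1, the mitochondrial acyl carrier protein, besides.

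Libraries held 22204349 to 32566240 counts, and the 35 genes together took 0.906% to 1.02% of the counts outside mitochondrial rows, which left at most 26607844 counts in a library. The labels do not say that libraries are separate animals, although they are treated so, and the tests set group differences against the spread between libraries. Summed over 8 markers, the level of cardiomyocyte transcripts was 59700 to 70100 CPM (counts scaled to a common library size) in the 12 libraries, with none of the 8 at 0. The sum of 5 atrial markers was 302 CPM in female exercised 2, 202 CPM in female sedentary 1 and 76.8 CPM in female sedentary 2, against 3.37 to 23.7 CPM in the other 9 libraries. The sum of 5 red cell markers reached 3630 and 1740 CPM in female sedentary 1 and 2. Female sedentary 2 also stood alone in its mitochondrial rows, and male sedentary 3 in the spread of the complex I genes, and values without either are given where they differ most. In bulk tissue, fewer cells of a type and less RNA per cell cannot be told apart.

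Per kilobase, subunit transcripts spanned a wide range of levels, although the proteins are built into 1 complex. Levels were set per kilobase of the longest coding transcript and averaged over the 12 libraries. Ndufb10 of the distal membrane arm was highest at 611 ± 29.9 CPM per kb (SD, n = 12), and Ndufv1, which binds NADH and the flavin that takes its electrons, followed at 529 ± 24.7 CPM per kb. Ndufs7, which holds the last iron-sulphur cluster before ubiquinone, averaged 446 CPM per kb, and Ndufa8, an accessory subunit on the intermembrane space side, 441 CPM per kb. The library ranges of these 2 genes overlapped, at 327 to 519 CPM per kb for Ndufs7 and 384 to 491 CPM per kb for Ndufa8. The lowest 3 were Ndufs4, an accessory subunit of the N arm whose loss causes mitochondrial disease, at 89.9, Ndufab1 at 79.4 and Ndufb2 at 3.1 CPM per kb. The order depends on the length used: per kilobase of all exon sequence of a gene, Ndufa8 came first at 441, Ndufb11 next at 372, then Ndufb10 at 368 and Ndufv1 at 333 CPM per kb, while Ndufb7, at 324 CPM per kb of transcript, ranked 33 of 35 at 44.6 CPM per kb of exon. In the order by transcript, only 3 neighbouring pairs had library ranges that did not overlap, namely Ndufb8 over Ndufa11, Ndufv3 over Ndufs4 and Ndufab1 over Ndufb2. Ndufb2 had 247 to 400 counts per library, its longest coding transcript is 4371 bases long, and it shares exon sequence with Gm42420, Gm16272 and Braf, so its level is uncertain.

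**Figure D1:**
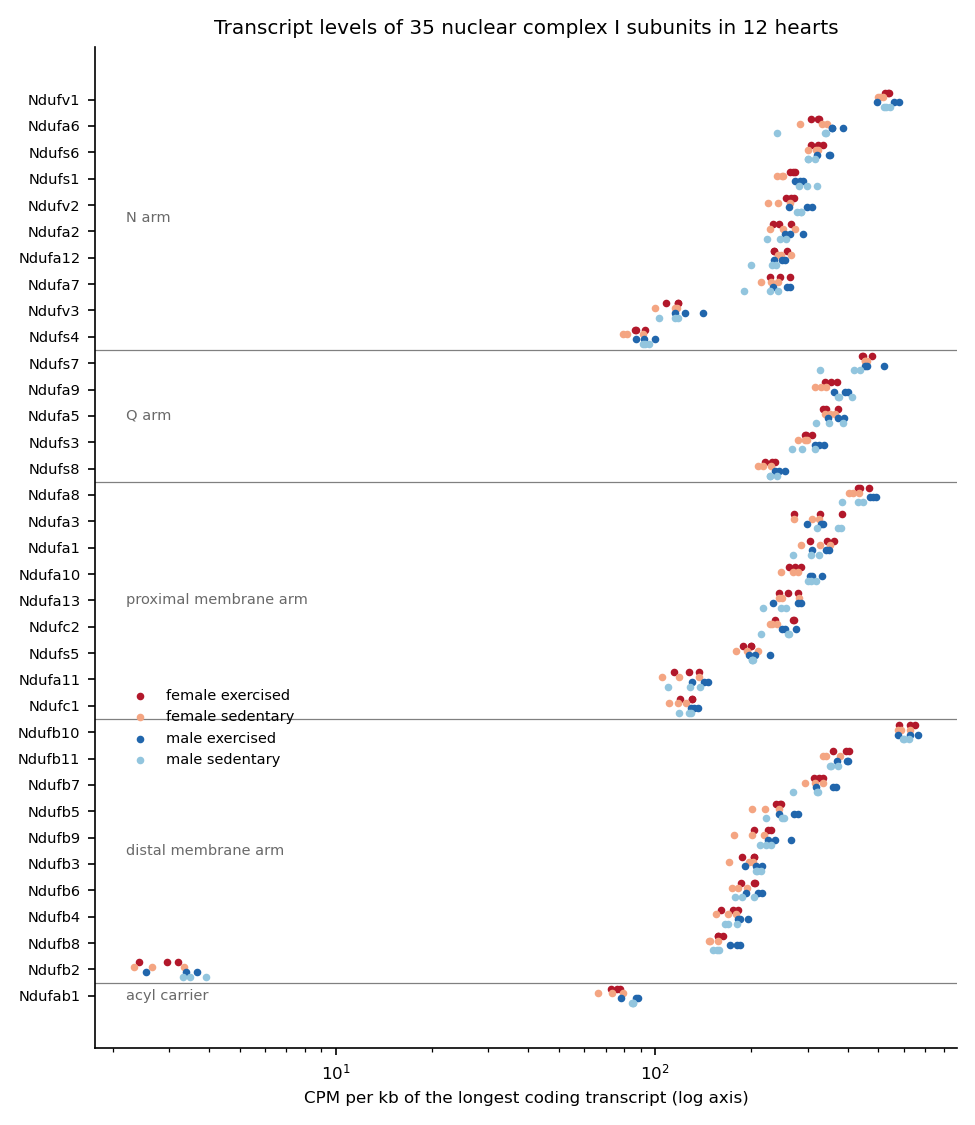
Level of each of the 35 subunit genes in CPM per kb of the longest coding transcript (log axis), 1 point per library, coloured by group and ordered by arm of the complex. By this length Ndufb10 stands highest at a mean of 611 CPM per kb and Ndufb2 lowest at 3.1 CPM per kb, and within most genes the points of the 4 groups overlap.

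Across the 12 libraries the genes tended to deviate together. For each library, the log2(CPM + 0.5) of a gene was set against its own mean over the 12 libraries. Between pairs of the 35 genes, Pearson's r of these deviations had a median of 0.54 over 595 pairs and was above 0 in 535. This describes 12 points that share library, depth and scaling, and pairs of other genes were not examined. The median r of a gene with the other 34 was highest for Ndufb6 of the distal membrane arm, at 0.73, and lowest for Ndufb2 at 0.11 and Ndufs1 at 0.12. Ndufs1, the largest core subunit, which carries iron-sulphur clusters of the N arm, was the 1 gene past edgeR's test in the main fit. DESeq2 and a fit with offsets called other genes too, as given below.

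Promoters are shown for 5 of the 35 genes. Ndufb8, Ndufs7 and Ndufa8 had the smallest p for exercise in males. Ndufa9 and Ndufa10 came next to Ndufs1 between the sexes in sedentary hearts. Ndufa10 has none of the marked letters. The sequences are those of RefSeq for GRCm38.p6, from 250 bases before to 50 bases after the start site. Of the 35 genes, 32 were in the set searched here, and Ndufa2, Ndufb9 and Ndufs1 were not. Each is written in the direction of its gene: Ndufb8 at chr19:44555393-44555692 (minus strand), Ndufs7 at chr10:80249199-80249498 (plus), Ndufa8 at chr2:36049289-36049588 (minus), Ndufa9 at chr6:126849095-126849394 (minus) and Ndufa10 at chr1:92473709-92474008 (minus). Capitals mark TGCGCA, letters of an NRF1 site, and AAGATGG, those of a YY1 site, wherever they were found on either strand; NRF1 and YY1 are transcription factors known for respiratory chain genes. ETS letters (CCGGAAG) and ERR letters (AAGGTCA) would be in capitals too and were not found in these 5.
Ndufb8: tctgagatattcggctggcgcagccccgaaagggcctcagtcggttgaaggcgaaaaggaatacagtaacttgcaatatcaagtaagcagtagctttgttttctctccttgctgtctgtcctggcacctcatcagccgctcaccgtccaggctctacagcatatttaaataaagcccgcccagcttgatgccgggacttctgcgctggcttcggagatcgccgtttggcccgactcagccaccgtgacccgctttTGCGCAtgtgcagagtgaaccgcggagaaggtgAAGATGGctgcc
Ndufs7: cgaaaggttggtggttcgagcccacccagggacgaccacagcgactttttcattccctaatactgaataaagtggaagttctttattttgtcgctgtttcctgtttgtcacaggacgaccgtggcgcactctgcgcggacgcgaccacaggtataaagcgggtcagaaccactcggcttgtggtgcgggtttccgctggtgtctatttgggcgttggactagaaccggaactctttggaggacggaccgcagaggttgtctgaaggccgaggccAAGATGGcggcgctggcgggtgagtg
Ndufa8: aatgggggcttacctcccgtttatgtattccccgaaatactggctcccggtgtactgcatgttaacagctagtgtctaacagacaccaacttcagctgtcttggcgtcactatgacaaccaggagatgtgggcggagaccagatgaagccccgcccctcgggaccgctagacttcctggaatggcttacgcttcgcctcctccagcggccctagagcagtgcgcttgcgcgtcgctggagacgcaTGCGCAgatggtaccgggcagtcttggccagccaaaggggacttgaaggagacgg
Ndufa9: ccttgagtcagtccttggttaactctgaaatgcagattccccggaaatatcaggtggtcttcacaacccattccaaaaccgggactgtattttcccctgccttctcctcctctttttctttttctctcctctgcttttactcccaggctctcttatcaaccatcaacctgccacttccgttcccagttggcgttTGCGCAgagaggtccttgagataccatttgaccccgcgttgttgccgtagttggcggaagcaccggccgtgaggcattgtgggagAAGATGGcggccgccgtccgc
Ndufa10: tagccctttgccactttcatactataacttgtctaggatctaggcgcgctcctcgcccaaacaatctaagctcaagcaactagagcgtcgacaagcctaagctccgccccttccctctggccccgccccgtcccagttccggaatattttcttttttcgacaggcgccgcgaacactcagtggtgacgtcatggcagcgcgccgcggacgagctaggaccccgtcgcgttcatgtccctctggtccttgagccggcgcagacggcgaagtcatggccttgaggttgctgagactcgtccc
The first letter of TGCGCA lay 5 bases after the start site in Ndufb8, 5 bases before it in Ndufa8 and 56 bases before it in Ndufa9, at offsets of -5 and -56 from it. The first letter of AAGATGG lay 38 bases after the start site in Ndufb8, 24 in Ndufs7 and 29 in Ndufa9, and these letters hold ATG, so they can overlap a start codon.

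Of the 32 promoters, 10 held TGCGCA (31.2%), against 8.06% of 27025 genes with a promoter of the same length, chromosome 18 left out of both. These were Ndufa5, Ndufa6, Ndufa8, Ndufa9, Ndufb4, Ndufb6, Ndufb8, Ndufb10, Ndufs5 and Ndufs6. AAGATGG was in 7 (21.9%, against 6.48% of all genes). The longer letters of a full NRF1 site were in 1, that of Ndufa11 (3.12%, against 0.977%). ETS letters were in 4 (12.5%, against 9.12%), ERR letters in 3 (9.38%, against 4.66%), the SP1 box GGGCGG in 15 (46.9%, against 35.9%) and TATAAA in 4 (12.5%, against 14.2%). Both strands were searched, and none of these motifs holds the letters of another, although matches can share letters at their ends. The median GC content was 59.2% in the 32 promoters, against 52.7% in all genes, and letters rich in G and C are more frequent where it is higher. A match describes letters only, and binding was not measured. Ndufa2 lies on the chromosome left out, so whether RefSeq has an entry for it was not examined.

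For exercise in females, none of the complex I genes had an adjusted p under 0.05 (Benjamini-Hochberg over all genes, edgeR's quasi-likelihood test), and their differences were small and mostly above 0. The median log2 fold change of the 35 was 0.07, against 0.00 over all genes tested, with 31 of 35 above 0, where 50.1% of all genes were. The range was narrow, from -0.05 for Ndufa12, an accessory subunit of the N arm, to 0.15 for Ndufc2, an accessory subunit of the membrane arm, with a median SE of 0.07. None of the 35 had an unadjusted p under 0.05 in either direction, where 1.89% of all genes had one above 0 and 2.04% one below 0. DESeq2 and limma's voom called none of the 35 either, and over all genes edgeR called 0, with 637 at an unadjusted p under 0.05, DESeq2 called 1 and voom 0. In 2 of the 35, Ndufs1 and Ndufv1, the exercised females lay above all sedentary females without overlap, where 5.42% of all genes did so, and in none did they lie below, where 4.37% did. The median was 0.02 with 18 of 35 above 0 without female sedentary 2 and 0.04 with 24 above 0 without female exercised 1. Without female sedentary 3, female exercised 3 or male sedentary 3, 4, 3 and 2 of the 35 had an unadjusted p under 0.05, all above 0. In the 9 libraries with few atrial transcripts the median was -0.02 with 13 of 35 above 0. All 8 cardiomyocyte markers were above 0 as well, with a median of 0.06, and their sum was 62000 to 62900 CPM in exercised females, against 59700 to 61900 CPM in sedentary females. All 5 macrophage markers were above 0 (median 0.24) and all 5 red cell markers below 0 (median -3.96), and the part of these lists in the result was not tested.

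For exercise in males, the differences were again mostly above 0, over a wider range than in females. None of the 35 had an adjusted p under 0.05 in edgeR's quasi-likelihood test (smallest adjusted p 0.588, Ndufb8). The median log2 fold change was 0.12, against 0.00 over all genes, with 28 of 35 above 0, where 50.1% of all genes were. They ran from -0.16 for Ndufa3 and Ndufb2 to 0.28 for Ndufs7. Of the 35, 7 had an unadjusted p under 0.05 above 0, namely Ndufb8, Ndufs7, Ndufa8, Ndufs3, Ndufs6, Ndufb7 and Ndufa6, where 4.24% of all genes did, and none had one below 0, where 3.6% did. DESeq2 called 1 of the 35, Ndufb8, and voom none. Over all genes edgeR called 0, with 1271 at an unadjusted p under 0.05, and voom called 0. DESeq2 called 25, adjusting over the 6166 genes its own filter kept rather than the 16213 of edgeR. In 7 genes the exercised males lay above the sedentary males without overlap, where 6.17% of all genes did so, and in none below, where 6.16% did. Without male sedentary 3 the median was 0.07 with 29 of 35 above 0, and 2 of the 35 had an unadjusted p under 0.05. Without male exercised 1 or male exercised 2 that count was 4. Of the 8 cardiomyocyte markers, 2 were above 0 in males, with a median of -0.05. All 5 endothelial markers were above 0, with a median of 0.14 and sums of 855 to 883 CPM in exercised males, against 796 to 821 CPM in sedentary males. All 5 macrophage markers were above 0 too, with a median of 0.27 and sums of 124 to 175 CPM in exercised males, against 98.9 to 151 CPM in sedentary males, and the part of these cells in the result was not tested.

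**Figure D2:**
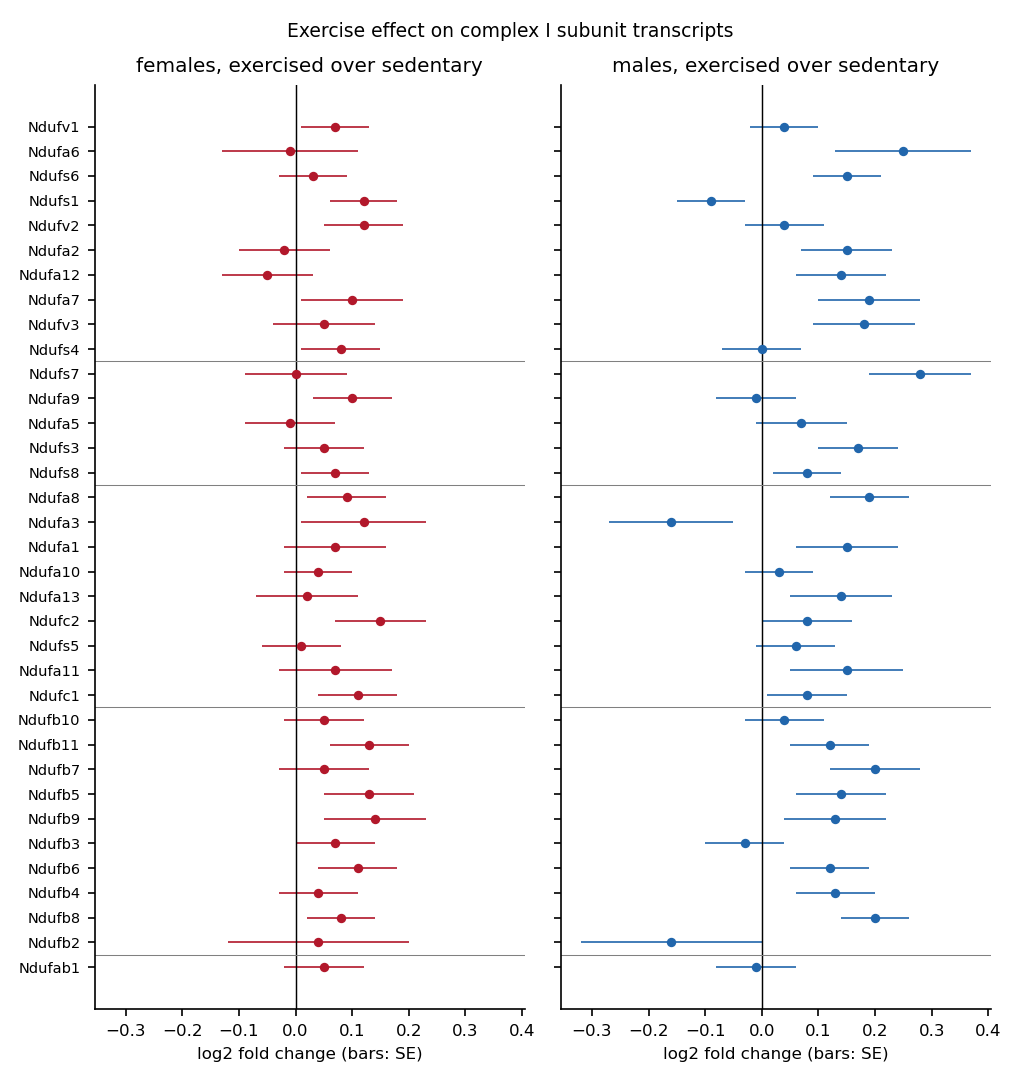
Log2 fold change of exercised over sedentary hearts for each subunit gene, females left and males right, with the SE as bars and the genes ordered by arm. Most points lie above 0, with medians of 0.07 in females and 0.12 in males, and none passed edgeR's test after adjustment.

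Averaged over the sexes, 33 of the 35 lay above 0, where 50.5% of all genes did, with a median of 0.08, and 9 had an unadjusted p under 0.05 above 0, where 3.5% of all genes did, and none below 0, where 2.78% did. That count of 9 was 2 without female exercised 1, female sedentary 1 or female sedentary 2, 3 without female exercised 2, 4 without male exercised 1 or male sedentary 3, and 5 without male exercised 2. None passed edgeR's test (smallest adjusted p 0.782), DESeq2 called 1, Ndufb8, and voom none. After its own filter, DESeq2 adjusted over 2296 genes for this average and over 4876 for the difference below. The difference between the exercise effects, females minus males, had a median of -0.02 with 15 of 35 above 0, where 49.4% of all genes were, and none of the 35 passed with edgeR, DESeq2 or voom (over all genes 0, 10 and 0 passed). The median was -0.07 without female sedentary 2 and 0.03 without female sedentary 3. Ndufs1 alone of the 35 had an unadjusted p under 0.05 for this difference (above 0, where 2.34% of all genes had one and 2.4% had one below 0).

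Among the core subunits of the N arm, the level of Ndufs1 in females was 702, 720 and 728 CPM after exercise, against 664, 670 and 640 CPM in the sedentary group. In males it was 773, 729 and 758 CPM in exercised hearts, against 792, 751 and 854 CPM in sedentary hearts. The groups did not overlap in females and overlapped in males, where male sedentary 3 was the highest of all libraries. The log2 fold change for exercise was 0.12 ± 0.06 (SE) in females and -0.09 ± 0.06 in males, -0.04 ± 0.06 without male sedentary 3, and the difference between them 0.21 ± 0.09 (edgeR's quasi-likelihood test, unadjusted p 0.028, adjusted p 0.93). For Ndufv1, levels were 892, 896 and 870 CPM in exercised against 840, 828 and 861 CPM in sedentary females, and 926, 963 and 821 CPM in exercised against 874, 863 and 903 CPM in sedentary males. Females did not overlap, although by a small margin (0.07 ± 0.06), while exercised males held both the highest and the lowest library (0.04 ± 0.06). Ndufv2, which binds an iron-sulphur cluster beside Ndufv1, stood at 460, 437 and 450 CPM in exercised against 410, 383 and 447 CPM in sedentary females. In males it stood at 524, 446 and 506 CPM in exercised against 484, 471 and 485 CPM in sedentary hearts. Both pairs of groups overlapped, with fold changes of 0.12 ± 0.07 in females and 0.04 ± 0.07 in males. The female value was 0.07 without female sedentary 2 and 0.18 without female sedentary 3.

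Of the accessory subunits of the N arm, Ndufa12, which belongs to the same protein family as an assembly factor of the complex, had 287, 262 and 261 CPM in exercised against 275, 269 and 295 CPM in sedentary females, and 282, 276 and 261 CPM in exercised against 266, 258 and 222 CPM in sedentary males. Male sedentary 3 was the lowest library, and both pairs of groups overlapped (-0.05 ± 0.08 in females, 0.14 ± 0.08 in males, and 0.06 ± 0.07 in males without that library). Over the 10 genes of the N arm the median was 0.06 in females, with 7 above 0, and 0.15 in males, with 8 above 0. Ndufa6 had a male value of 0.25 ± 0.12, the largest of the arm, and of 0.10 ± 0.08 without male sedentary 3.

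In the Q arm, Ndufs7 had the largest male fold change of the 35 genes. It had 469, 441 and 437 CPM in exercised against 453, 447 and 445 CPM in sedentary females, and 454, 510 and 445 CPM in exercised against 411, 429 and 322 CPM in sedentary males. The females overlapped, whereas all exercised males lay above all sedentary males, with male sedentary 3 far below the rest. The fold change was 0.00 ± 0.09 in females and 0.28 ± 0.09 in males (unadjusted p 0.00926, adjusted p 0.615, edgeR's quasi-likelihood test), and in males 0.16 ± 0.07 without male sedentary 3. The difference of the effects, -0.28 ± 0.13, was -0.16 ± 0.09 without that library. Ndufs3, a core subunit with no cluster of its own, had 311, 325 and 309 CPM in exercised against 308, 292 and 313 CPM in sedentary females, and 341, 353 and 332 CPM in exercised against 301, 330 and 280 CPM in sedentary males. Females overlapped (0.05 ± 0.07) and males did not (0.17 ± 0.07, unadjusted p 0.022, adjusted p 0.615, edgeR), with male exercised 3 just above male sedentary 2. Ndufs8, which carries iron-sulphur clusters on the way to ubiquinone, had 239, 221 and 233 CPM in exercised against 211, 219 and 232 CPM in sedentary females, and 256, 239 and 245 CPM in exercised against 230, 230 and 241 CPM in sedentary males. Both pairs overlapped, at 0.07 ± 0.06 and 0.08 ± 0.06.

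In the proximal membrane arm, Ndufa8 had the smallest p of the 9 genes for exercise in males. It stood at 415, 422 and 406 CPM in exercised males, against 371, 384 and 330 CPM in sedentary males, and in females at 402, 378 and 372 CPM after exercise, against 347, 358 and 373 CPM in the sedentary group. The males did not overlap and the females did, by 1 library. The fold change was 0.19 ± 0.07 in males (unadjusted p 0.0112, adjusted p 0.615 with edgeR) and 0.09 ± 0.07 in females, and 0.13 ± 0.06 in males without male sedentary 3. Ndufc2 had 184, 186 and 162 CPM in exercised against 158, 156 and 164 CPM in sedentary females, and 189, 174 and 170 CPM in exercised against 178, 179 and 146 CPM in sedentary males. Both pairs overlapped, with 0.15 ± 0.08 in females and 0.08 ± 0.08 in males, -0.01 ± 0.08 without male sedentary 3. Ndufa1, an X-linked subunit needed for assembly of the complex, had 152, 145 and 128 CPM in exercised against 137, 120 and 148 CPM in sedentary females, and 143, 147 and 130 CPM in exercised against 136, 129 and 113 CPM in sedentary males. Both pairs overlapped, with 0.07 ± 0.09 in females, -0.01 without female sedentary 2, and 0.15 ± 0.09 in males, 0.08 without male sedentary 3.

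In the distal membrane arm, Ndufb8 had the smallest p of the 35 for exercise in males and for the average of the sexes. It stood at 396, 385 and 366 CPM in exercised males, against 335, 338 and 324 CPM in sedentary males. In females it stood at 336, 350 and 336 CPM in exercised hearts, against 315, 319 and 336 CPM in sedentary hearts. All exercised males lay above the other 9 libraries, while the females overlapped at their margin. The fold change was 0.20 ± 0.06 in males (unadjusted p 0.00344, adjusted p 0.588 with edgeR's quasi-likelihood test, adjusted p 0.0493 with DESeq2) and 0.08 ± 0.06 in females (adjusted p 1.0). Leaving out any 1 of the 12 libraries left the male value between 0.17 and 0.23. The average over the sexes was 0.14 ± 0.04 (adjusted p 0.782 with edgeR, 0.0498 with DESeq2), and the difference between them, -0.13 ± 0.08, had an unadjusted p of 0.142 in edgeR's test. Ndufb11, an X-linked subunit of this arm, had 367, 360 and 326 CPM in exercised against 311, 305 and 343 CPM in sedentary females, and 363, 365 and 336 CPM in exercised against 323, 320 and 339 CPM in sedentary males. Both pairs overlapped, with 1 sedentary library of each sex above the lowest exercised library (0.13 ± 0.07 in females, 0.12 ± 0.07 in males). All 10 genes of this arm were above 0 in females, with a median of 0.07, and 8 in males, with a median of 0.13. Ndufab1 stood at 0.05 ± 0.07 in females and -0.01 ± 0.07 in males.

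**Figure D3:**
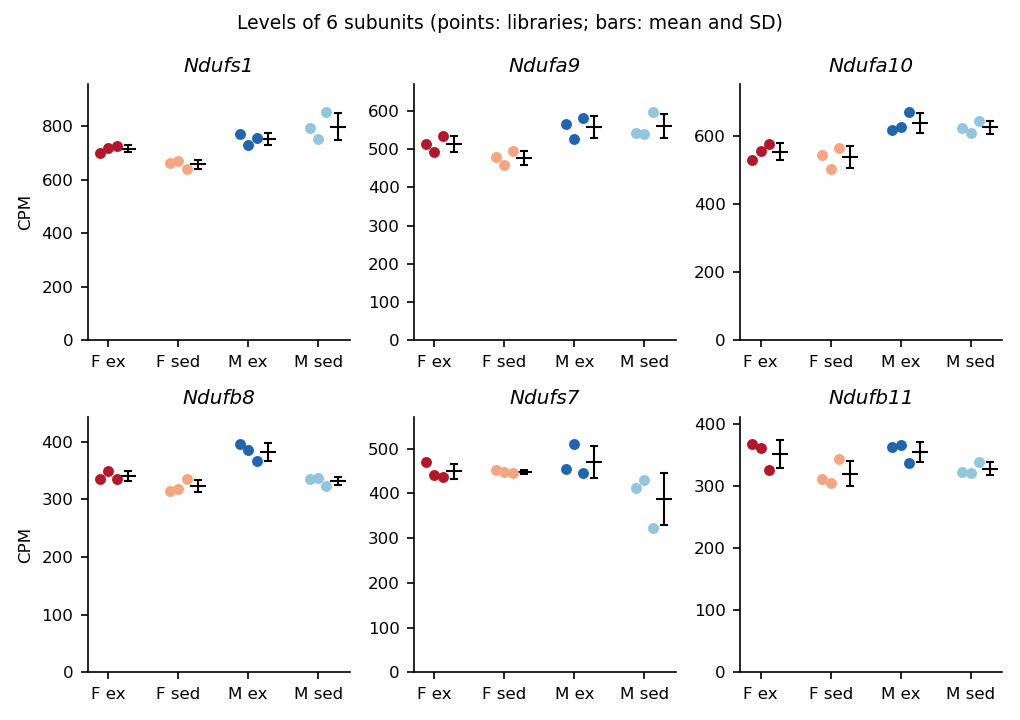
CPM per library of 6 subunit genes in exercised (ex) and sedentary (sed) females (F) and males (M), with points for libraries and bars for mean and SD, n = 3. Ndufs1 is lower in sedentary females (658 ± 16.0 CPM) than in sedentary males (799 ± 52.1 CPM), and the 3 exercised males stand above the other 9 libraries for Ndufb8.

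Between the sexes, the transcript past edgeR's test in the main fit was Ndufs1. In sedentary hearts it averaged 658 ± 16.0 CPM in females and 799 ± 52.1 CPM in males (SD, n = 3 each), without overlap. The log2 fold change was -0.28 ± 0.06 (SE), with an adjusted p of 0.0305 in edgeR's quasi-likelihood test, so that 1 of the 35 genes was called, where 2.21% of all genes were called. In exercised hearts it averaged 717 ± 13.6 CPM in females and 753 ± 22.8 CPM in males, again without overlap but with -0.07 ± 0.06 and an adjusted p of 0.76 (edgeR). The call in sedentary hearts was lost without any 1 of 7 libraries: the adjusted p in edgeR's test was 0.051 without female exercised 1, 0.0525 without female exercised 2, 0.0964 without female sedentary 1, 0.0749 without female sedentary 2 and 0.0958 without female sedentary 3. It was 0.0786 without male sedentary 1 and 0.127, at -0.23 ± 0.06, without male sedentary 3. DESeq2 (adjusted p 0.000217) and voom (adjusted p 0.0215) kept it. It was lost in edgeR's test with the groups compared alone (adjusted p 0.0742) and with the atrial markers as a covariate (adjusted p 0.107). With no filter on low counts edgeR gave 0.124, in a fit not read further because it gave adjusted p-values of 0. In edgeR fits added after the data were seen, the call was kept. The adjusted p was 0.0291 with offsets for GC content and length and 0.0048 in the bias-adjusted test without a filter. In the 9 libraries with few atrial transcripts, which leave 1 sedentary female, the value was -0.32 ± 0.10 with an adjusted p of 0.301 (edgeR).

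The complex I genes as a whole lay on both sides of 0 in sedentary hearts. The median of the 35 was -0.04, against 0.01 over all genes, with 11 of 35 above 0, where 52.4% of all genes were. Below 0, 7 had an unadjusted p under 0.05, where 9.28% of all genes did, and above 0, 2 did, where 9.11% did. The sexes did not overlap in 7 genes lower in females, where 12.8% of all genes did not, and in 2 higher in females, Ndufs7 and Ndufa12, where 12.2% did not. The median was -0.01 without female sedentary 2, -0.08 without female sedentary 3 and -0.07 without male sedentary 3. The count of 7 was 4 without female sedentary 2 and 11 without female sedentary 3, and the count of 2 was 1 without female sedentary 2 and 0 without female sedentary 1, female sedentary 3 or male sedentary 3. All 8 cardiomyocyte markers were below 0 in this comparison too, with a median of -0.14 and a summed level of 59700 to 61900 CPM in sedentary females, against 63000 to 70100 CPM in sedentary males, and their part in the result was not tested. Ndufs7 was at 0.21 ± 0.09 and Ndufa12 at 0.17 ± 0.08, and for both male sedentary 3 was the lowest library, without which the values were 0.10 ± 0.07 for each gene. Of 40 tested subunits of respiratory complexes II to V, 25 were below 0 in this comparison, with a median of -0.06. In edgeR's test 12 of the 40 had an unadjusted p under 0.05 below 0, and 1 above 0.

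Ndufa9 and Ndufa10 had the next smallest p. Ndufa9, an accessory subunit where the Q arm meets the membrane, had 479, 458 and 495 CPM in sedentary females, against 544, 541 and 598 CPM in sedentary males. In exercised hearts it had 513, 492 and 535 CPM in females, against 567, 526 and 581 CPM in males. The sedentary groups did not overlap and the exercised groups did, with log2 fold changes of -0.23 ± 0.07 (adjusted p 0.0839, edgeR) and -0.12 ± 0.07. Ndufa10, a membrane arm subunit related to nucleoside kinases, had 544, 501 and 565 CPM in sedentary females, against 623, 607 and 644 CPM in sedentary males. In exercised hearts it had 529, 555 and 577 CPM in females, against 616, 627 and 670 CPM in males. All 6 female libraries lay below all 6 male libraries, at -0.22 ± 0.06 in sedentary hearts (adjusted p 0.0943, edgeR) and -0.20 ± 0.06 in exercised hearts (adjusted p 0.286). DESeq2 called both genes in sedentary hearts (adjusted p 0.0142 for Ndufa9 and 0.0215 for Ndufa10).

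In exercised hearts, females stood slightly below males in nearly all complex I genes, and none passed edgeR's test, DESeq2 or voom (smallest adjusted p 0.286 with edgeR), where 0.16% of all genes passed edgeR's. The median log2 fold change was -0.10, against 0.00 over all genes, with 2 of 35 above 0, where 50.8% of all genes were. This was not particular to complex I: of 40 tested subunits of complexes II to V, 37 were below 0, with a median of -0.08. Of the 35, 3 had an unadjusted p under 0.05 below 0, where 5% of all genes did, namely Ndufa10, Ndufb8 and Ndufab1, and none had one above 0, where 4.84% did. The median was -0.06 with 8 above 0 without male exercised 2, and the count of 3 was 1 without male exercised 1 and 5 without male exercised 2. Ndufb8 averaged 341 ± 7.94 CPM in exercised females and 382 ± 15.5 CPM in exercised males (-0.17 ± 0.06), and Ndufab1 after exercise had 270, 253 and 264 CPM in females, against 307, 271 and 303 CPM in males (-0.16 ± 0.07). Neither gene overlapped between the sexes, and 9 of the 35 did not, all lower in females, where 7.54% of all genes did so and 6.79% lay higher without overlap. In sedentary hearts Ndufab1 had 254, 230 and 276 CPM in females, against 296, 296 and 295 CPM in males (-0.22 ± 0.07, adjusted p 0.125, edgeR). Markers of other cells moved in this comparison too: 5 of 5 fibroblast (median 0.17), 5 of 5 macrophage (0.29), 5 of 5 red cell (1.41) and 4 of 4 atrial markers (5.42) were above 0, and 1 of 5 endothelial (-0.18) and 2 of 8 cardiomyocyte markers (-0.03). Their part in the result was not tested. Of the X-linked genes, Ndufa1 was at 0.02 ± 0.09 in exercised and 0.10 ± 0.09 in sedentary hearts, and Ndufb11 at -0.01 ± 0.07 and -0.03 ± 0.07.

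The mean deviation of the 35 genes varied between libraries of the same group. By library it was 0.05, -0.01 and -0.06 in exercised females and -0.07, -0.16 and 0.02 in sedentary females. It was 0.12, 0.10 and 0.03 in exercised males and 0.03, 0.01 and -0.07 in sedentary males. Female sedentary 2 was lowest of the 12 and male exercised 1 highest, and exercised and sedentary females overlapped while exercised males lay at or just above the highest sedentary male. The groups averaged 0.00 ± 0.05 in exercised females, -0.07 ± 0.09 in sedentary females, 0.08 ± 0.04 in exercised males and -0.01 ± 0.05 in sedentary males (SD, n = 3 each), with a pooled SD within groups of 0.06. In male exercised 1 all 35 genes were above their own mean, and in female sedentary 2 only 2 were.

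**Figure D4:**
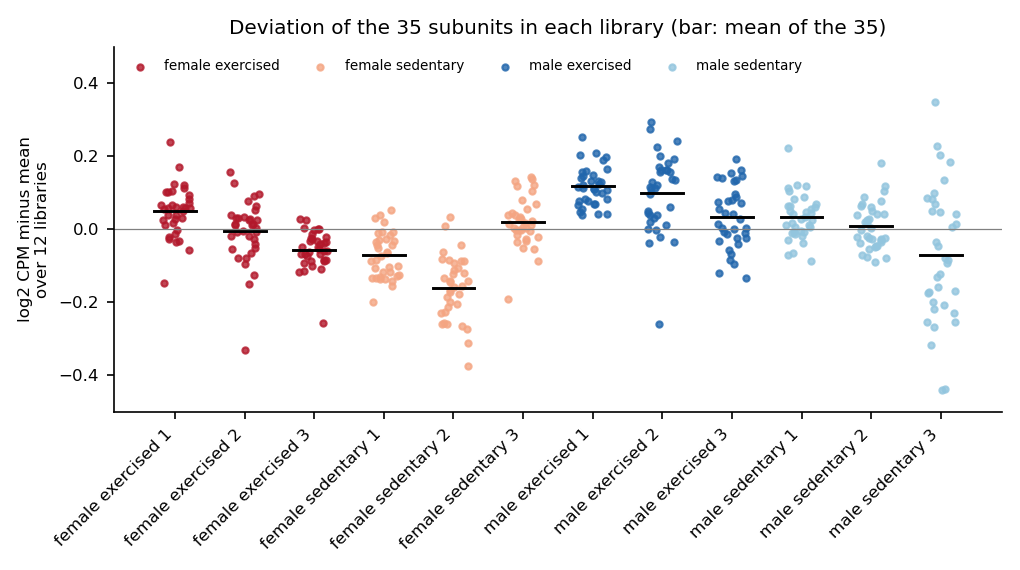
Deviation of each of the 35 genes in each library, as log2(CPM + 0.5) minus the gene's mean over the 12 libraries, with a bar at the mean of the 35. Female sedentary 2 lies lowest at -0.16, and the points of male sedentary 3 spread widest, with an SD of 0.19.

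Male sedentary 3 stood apart in the spread of its values. The SD of its 35 deviations was 0.19, against 0.05 to 0.11 in the other 11 libraries, with Ndufa6 lowest at -0.44 and Ndufb2 highest at 0.35. These deviations went with the GC content of the transcript: Spearman's rho across the 35 genes was -0.50 in this library, and -0.46 across 9426 genes with a mean log2 CPM above 3. The other libraries were not free of such a trend: rho across the 35 genes was -0.55 in male sedentary 1, with -0.14 across the 9426, and -0.27 in both male sedentary 2 and male exercised 3. Male exercised 2 leaned the other way, with 0.62 across the 35 genes and 0.35 across the 9426. These are correlations across genes within 1 library, and genes are not independent replicates. Split by GC content, the 12 genes of 42.0% to 48.4% had a median male exercise value of 0.02, the 11 genes of 48.8% to 53.6% one of 0.12 and the 12 genes of 53.8% to 60.4% one of 0.16. Without male sedentary 3 these were 0.04, 0.06 and 0.11. For sedentary females over sedentary males the medians were -0.15, -0.03 and -0.01 in the same order, and -0.16, -0.05 and -0.05 without male sedentary 3.

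**Figure D5:**
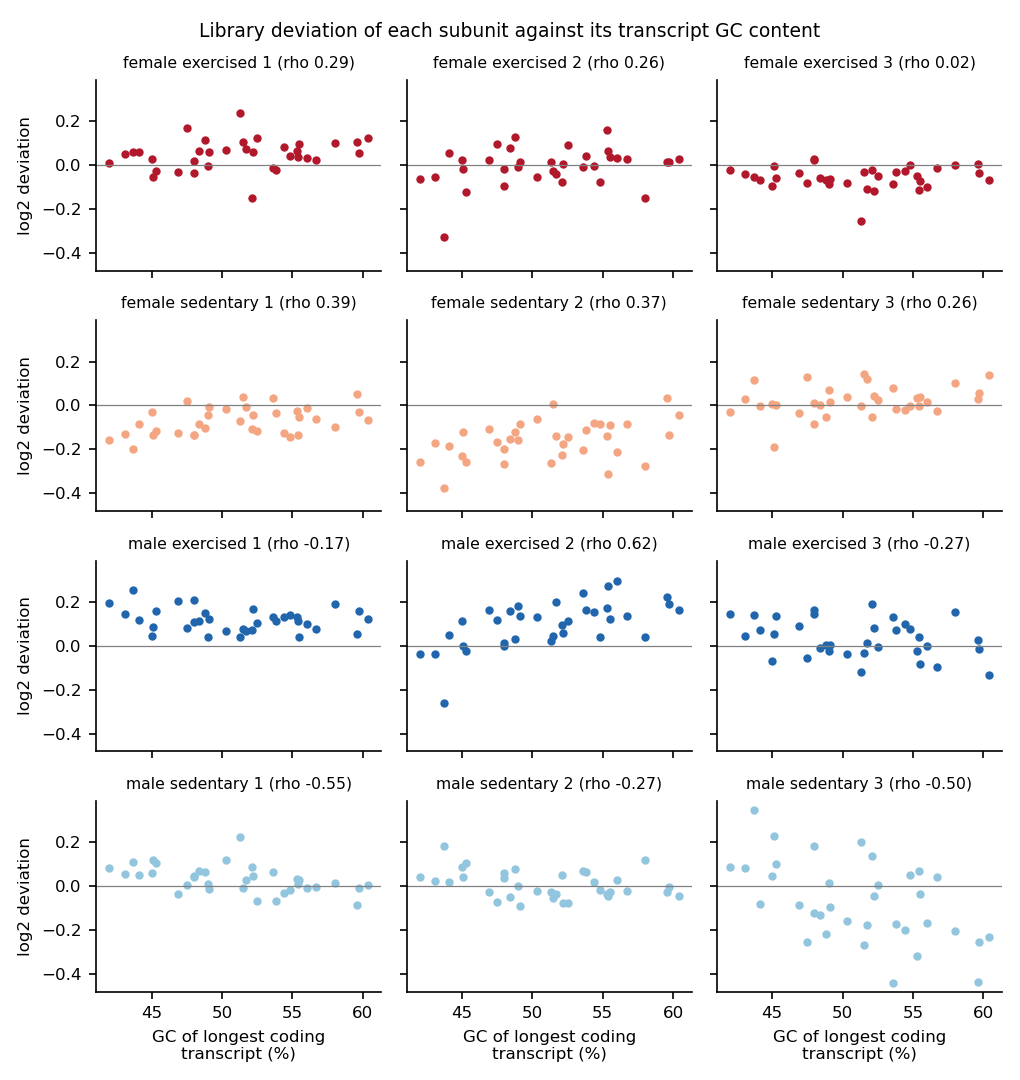
Deviation of each subunit gene (log2, y) against the GC content of its longest coding transcript (percent, x), 1 panel per library, with Spearman's rho across the 35 genes. The slope is downward in male sedentary 3 (rho -0.50) and upward in male exercised 2 (rho 0.62).

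With offsets that take out a trend with GC content and length in each library, added after the data were seen, the sexes stood further apart. In exercised hearts all 35 genes were then below 0 in females, where 48.1% of all genes were above 0, with a median of -0.15. Of them, 17 had an unadjusted p under 0.05, where 6.72% of all genes had one below 0, and none passed edgeR's test. In sedentary hearts the median was -0.13, 3 of 35 were above 0, where 49% of all genes were, 16 had an unadjusted p under 0.05 below 0, where 10.1% of all genes did, and 4 of 35 were called, namely Ndufs1, Ndufa10, Ndufa9 and Ndufb9, where 2.83% of all genes were. The medians for exercise were then 0.07 in females, with 33 of 35 above 0, and 0.08 in males, with 26 of 35 above 0, and none was called.

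Genes that work beside these subunits give a frame for the values. Subunits of complexes II to V, of which 40 were tested, had a median of 0.07 for exercise in females with 38 above 0, and 0.10 in males with 32 above 0, near the 0.07 and 0.12 of complex I. Cyc1, the cytochrome c1 of complex III, averaged 893 ± 63.2 CPM in exercised and 731 ± 65.9 CPM in sedentary males (0.29 ± 0.07, adjusted p 0.567, edgeR), and Cox4i1 of complex IV was at 0.31 ± 0.07 in males and 0.05 ± 0.07 in females. Among 17 tested assembly factors, which put the complex together and leave it, the median was 0.05 in females with 11 above 0 and -0.02 in males with 7 above 0. Tmem126b, a factor for the membrane arm, averaged 30.3 ± 2.08 CPM in exercised and 36.0 ± 1.94 CPM in sedentary males (-0.25 ± 0.10, adjusted p 0.615, edgeR). None of these lists held a gene past edgeR's test for exercise, and 4 of the 40, 1 of the 17 and 4 of the 14 dehydrogenases below had an unadjusted p under 0.05 above 0 in females, where 1.89% of all genes did, and 0 had one below 0. In males the counts above 0 were 9, 1 and 1, where 4.24% of all genes did, and those below 0 were 0, 3 and 1, where 3.6% did. DESeq2, adjusting over 6166 genes, called Cox4i1 in males (adjusted p 0.0492). Of 13 regulators of mitochondrial genes, 6 were above 0 in males, with a median of -0.02, and 1 in each direction had an unadjusted p under 0.05. Yy1, the factor named above, was at 0.16 ± 0.07 in males (adjusted p 0.631, edgeR) and at 0.01 ± 0.07 in females. Ppargc1a, a coactivator of mitochondrial genes, was at -0.66 ± 0.18 for exercise in males (adjusted p 0.588, edgeR, and 0.0392 with DESeq2), on the other side of 0 from most subunits, and at -0.05 ± 0.18 in females.

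Several enzymes that supply NADH were lower in sedentary females than in sedentary males. Of 14 tested dehydrogenases, 6 passed edgeR's test and all 6 were lower in females, where 2.21% of all genes were called in either direction, with a median of -0.22 over the 14. Hadh, a dehydrogenase of fatty acid oxidation, had 569, 534 and 548 CPM in sedentary females, against 752, 730 and 790 CPM in sedentary males, without overlap (-0.46 ± 0.07, adjusted p 0.00449, edgeR). Hadha, of the trifunctional protein of the same pathway, was at -0.44 ± 0.08 (adjusted p 0.0162, edgeR). The other 4, named after their values were seen, were Dlst, Dld, Dlat and Pdhb of the 2-oxoglutarate and pyruvate dehydrogenase complexes, at -0.31, -0.28, -0.28 and -0.22. Without any 1 of the 6 sedentary libraries the count was 1 to 3, and Hadh kept its call in each. The count was 9 with DESeq2, 3 with the groups compared alone, 1 with the atrial markers as a covariate and 0 over the 9 libraries with few atrial transcripts. Beside the cardiomyocyte markers given above for these groups, the 5 red cell markers had a median of 5.89 and the 4 atrial markers tested one of 4.90, all above 0, and their part in the result was not tested. Among assembly factors 1 was called, Foxred1, also chosen after its values were seen, with 64.2, 67.8 and 68.7 CPM in sedentary females, against 78.5, 82.8 and 82.1 CPM in sedentary males (-0.28 ± 0.06, adjusted p 0.0286, edgeR). It lost the call without female exercised 1 or any 1 of the 6 sedentary libraries, with an adjusted p of at most 0.118. Whether the levels of these enzymes bear on complex I transcripts was not tested.

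The counts behind some of the 35 genes may be shared with neighbours or copies, and the strand setting of the counting is not given in the sources used here. Ndufb6 shares 257 bases, 39.0% of its exon length, with Smim27, Ndufa13 shares 375 bases with Tssk6, and Ndufb9 shares 201 bases (19.5%) with Gm49356. The neighbours were low, with 11 to 32 counts per library for Smim27, 0 to 9 for Tssk6 and 0 to 2 for Gm49356. Ndufb5 shares 616 bases with Mrpl47, which had 439 to 620 counts. Of copies, Ndufb4c had 2022 to 3194 counts per library and Ndufab1-ps 71 to 198, so the values of Ndufb4 and Ndufab1 are uncertain. Ndufs6b had 6 to 41, and both Ndufab1-ps and Ndufs6b were highest in female sedentary 2. The core subunits encoded by mitochondrial DNA could not be compared: their 7 rows were at 0 in 11 libraries and summed to 2448048 counts, 7.52% of the library, in female sedentary 2.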

How the data were processed

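RNA from bulk mouse hearts was sequenced in 12 libraries, 3 in each of 4 groups, and the authors deposited a table of raw counts per Ensembl gene. Per the submitters' processing notes, Trimmomatic 0.36, STAR 2.5.2b, featureCounts of Subread 1.5.2 and the GRCm38 build were used. The sources used here give no annotation release, strand setting or treatment of reads that map more than once. Of 55401 rows, 55141 had a symbol through GENCODE M21, and 54349 identifiers matched with their version. The 37 mitochondrial rows, at 0 in 11 libraries, were removed by the filter on low counts and so were not in the library sizes of the main fit. Those with counts stayed in the DESeq2 fit and in the fits without a filter. The counts were filtered with filterByExpr by group, scaled by TMM and fitted with edgeR 4.0.16 in R 4.3.3, as a quasi-likelihood model of group means over all 12 libraries with robust dispersion and 8 residual degrees of freedom. In edgeR the 6 contrasts were adjusted by Benjamini-Hochberg over the 16213 genes tested, with a threshold of 0.05. DESeq2 adjusted over the genes its own filter kept, from 2296 for the average exercise effect to 33215 for exercise in females. CPM values use TMM-scaled library sizes, and deviations use log2(CPM + 0.5).

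Alternatives were DESeq2 1.42.0, limma 3.58.1 with voom and sample weights, other scalings and filters, fits on the groups compared alone, atrial markers as a covariate, the 9 libraries with a Myl7 level under 10 CPM, and leaving out each library. Offsets for GC content and length, and a bias-adjusted test without a filter, were added once the data had been seen. The subunits and all lists were chosen with earlier results of these data known. Named with values in every library were the 3 subunits of smallest p in each contrast, the 6 core subunits, the 2 X-linked subunits and any subunit past the test. Up to 2 genes per other list were named by smallest p in each sex. The scripts were tested on simulated data.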

Additional observations from a re-analysis of the deposited data

Results flagged for a closer look

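Counts on the mitochondrial genes for core subunits of complex I appeared in 1 library alone, female sedentary 2, and lie outside the comparisons above. That library had 565247 counts on mt-Nd1, 446113 on mt-Nd2, 81067 on mt-Nd3, 626494 on mt-Nd4, 120711 on mt-Nd4l, 517074 on mt-Nd5 and 91342 on mt-Nd6, where the other 11 libraries had 0 on each. All 37 mitochondrial rows held 27.3% of its counts and 0 elsewhere. These genes carry the proton channels of the membrane arm, and no group can be compared on them. The same library had the lowest mean deviation of the 35 nuclear subunits, at -0.16 with these rows left out of its library size, and whether the 2 are linked was not tested.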

How the results depend on the processing

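No paired analysis was possible because the labels give the groups no shared replicate numbers. Of the medians and counts of calls, 252 values under an alternative stayed within the limits and 20 moved. In the 9 libraries with few atrial transcripts, the median was -0.02 for exercise in females, -0.12 for the difference of the effects and 0.04 for sedentary females over males, which the GC and length offsets put at -0.13. Leaving out 1 library gave medians of 0.02 to 0.10 for exercise in females, 0.07 to 0.14 in males, 0.07 to 0.11 on average and -0.07 to 0.03 for their difference. For females over males it gave -0.11 to -0.06 in exercised and -0.08 to -0.01 in sedentary hearts. DESeq2 called 1 subunit for exercise in males, 1 for the average and 3 between the sexes in sedentary hearts. There the count was 4 with the offsets, 2 with the bias-adjusted test without a filter, and 0 without a filter, with the groups compared alone, with the atrial covariate and in the 9 libraries, and 0 to 1 without 1 library. The unfiltered fit gave adjusted p-values of 0 and is not read further. Values near 0 changed sign. With few atrial transcripts, exercise in females was -0.08 for Ndufa1 and -0.01 for Ndufs3. Ndufs7 was 0.00 in females with the groups compared alone, and Ndufv1 was -0.05 in males with the offsets. Without 1 library, females ranged from -0.01 to 0.14 for Ndufa1 and from -0.03 to 0.02 for Ndufs7, and males from -0.01 to 0.10 for both Ndufv1 and Ndufv2. Among single genes and other lists, 1051 values stayed, 71 lost and 10 gained a call, 25 counts moved and 10 values changed sign. With 3 libraries a group, a value of 0.28 (Ndufs7, exercise in males) was not called, while one of -0.28 (Ndufs1, sedentary females over males) was.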
